A study of Mus musculus with 10 samples.

Results

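Pre-mRNA splicing factors and hnRNP proteins were examined in blood, as 6 name families of genes: Srsf (SR proteins), Hnrnp (heterogeneous nuclear ribonucleoproteins), Snrp (proteins of the small nuclear ribonucleoproteins, snRNPs), Sf3a and Sf3b (the SF3 complexes of the U2 snRNP), Lsm (Sm-like proteins) and Prpf (pre-mRNA processing factors). Members were taken by the pattern of the gene symbol, and 74 of the 8904 genes in the table carried such a symbol. Of these, 10 were Srsf, 20 Hnrnp, 12 Snrp, 9 Sf3a or Sf3b, 11 Lsm and 12 Prpf genes.

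The spliceosome removes introns from pre-mRNA. The U1 and U2 snRNPs first recognize the 5′ splice site and the branch site, the U4, U5 and U6 snRNPs then join, and the PRP proteins drive the rearrangements that lead to catalysis. SR proteins bind exonic enhancers and mostly promote the use of a nearby splice site, while hnRNP proteins coat the nascent transcript and often act against them. In blood, nucleated leukocytes transcribe and splice actively, whereas reticulocytes have lost the nucleus and carry only RNA made earlier.

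RNA was sequenced from the blood of adult C57BL/6 mice that had received either metformin, a drug for type 2 diabetes, or phosphate-buffered saline (PBS) for 30 days, with 5 libraries per treatment. All mice shared the strain, with no other allele or agent in the labels. The study asked which pathways in blood changed with metformin. Values are deposited log2 FPKM (fragments counted per length of transcript and per size of library), in which levels of different genes can be set side by side because length is divided out.

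The libraries did not all look like blood alone, and these differences bear on every comparison below. Controls 1 and 5 were rich in heart muscle transcripts: the mean over 12 heart markers was 8.27 to 8.59 in these libraries, against 0.17 to 2.04 in controls 2 to 4. All 12 heart markers were higher in controls 1 and 5 than in each of controls 2 to 4 (summed log2 level 99.2 to 103, against 2.06 to 24.5). Metformin libraries had a heart marker mean of 0.50 to 0.78. Markers of red cell precursors, 11 of the 15 listed being in the table used here, had a mean of 5.73 to 6.14 in metformin libraries, 0.42 to 1.98 in controls 1 and 5 and 4.84 to 5.69 in controls 2 to 4. The mean over 12 fast skeletal muscle markers was 4.60 to 5.21 in metformin libraries, 0.57 to 0.71 in controls 1 and 5 and 0.29 to 0.56 in controls 2 to 4. Metformin was therefore compared with all 5 controls, as the labels group them, and with controls 2 to 4 alone, while controls 1 and 5 were described beside controls 2 to 4 with no test, since they were set apart by their own profile. Both comparisons share the metformin libraries and controls 2 to 4, and so are not independent.

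Splicing factor transcripts were of modest abundance. Of the 74 members, 46 reached a log2 value of 1 in at least 5 libraries and were tested (62.2%, against 38.7% of all genes in the table), and the mean log2 value of these 46 lay between 0.77 and 3.32. All 10 Srsf genes were tested, 18 of 20 Hnrnp, 7 of 12 Snrp, 2 of 9 Sf3a or Sf3b, 6 of 11 Lsm and 3 of 12 Prpf genes. The value in 9 members was under 1 in every library (Hnrnpll, Lsm2, Lsm8, Lsm10, Lsm14b, Prpf4b, Prpf38a, Prpf39 and Sf3b5). Another 19 reached it in 1 to 4 libraries only. Among these were Hnrnpu, a large nuclear scaffold protein, Snrpa and Snrpb2, which bind the U1 and U2 snRNAs, all 3 Sf3a genes, and Prpf8, the protein at the heart of the catalytic core. Also among them were Lsm7, Prpf3, Prpf6, Prpf31, Prpf40b, Sf3b3, Sf3b4, Sf3b6, Snrpa1, Snrpd1 and Snrpf. None of these 28 genes was tested, and a member that passed did so only with enough signal in some libraries.

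Most of the tested members stood lower in metformin-treated blood. Against all 5 controls the log2 fold change was below 0 in 38 of 46 members (82.6%, against 49.4% of all 3442 genes tested), with a median of -0.28, against 0.01 over all genes. It was below 0 in 38 of 46 against controls 2 to 4 as well (44.7% of all genes), with a median of -0.29, against 0.07 over all genes. Single members rarely passed the test, in which limma p-values were adjusted over all 3442 genes at a threshold of 0.05. Against all controls 3 members fell (6.52% of the 46, with 3.11% of all genes called lower) and 1 rose (2.17%, with 4.21% of all genes called higher). Set against controls 2 to 4, 7 members fell (15.2%, with 9.06% of all genes called lower) and 1 rose (5.81% of all genes called higher). At an unadjusted p under 0.05 in limma, 13 members were lower and 2 higher against all controls, where all genes gave 12.6% lower and 16.2% higher. The same counts against controls 2 to 4 were 15 lower and 1 higher, where all genes gave 16.1% lower and 12.6% higher.

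**Figure D1:**
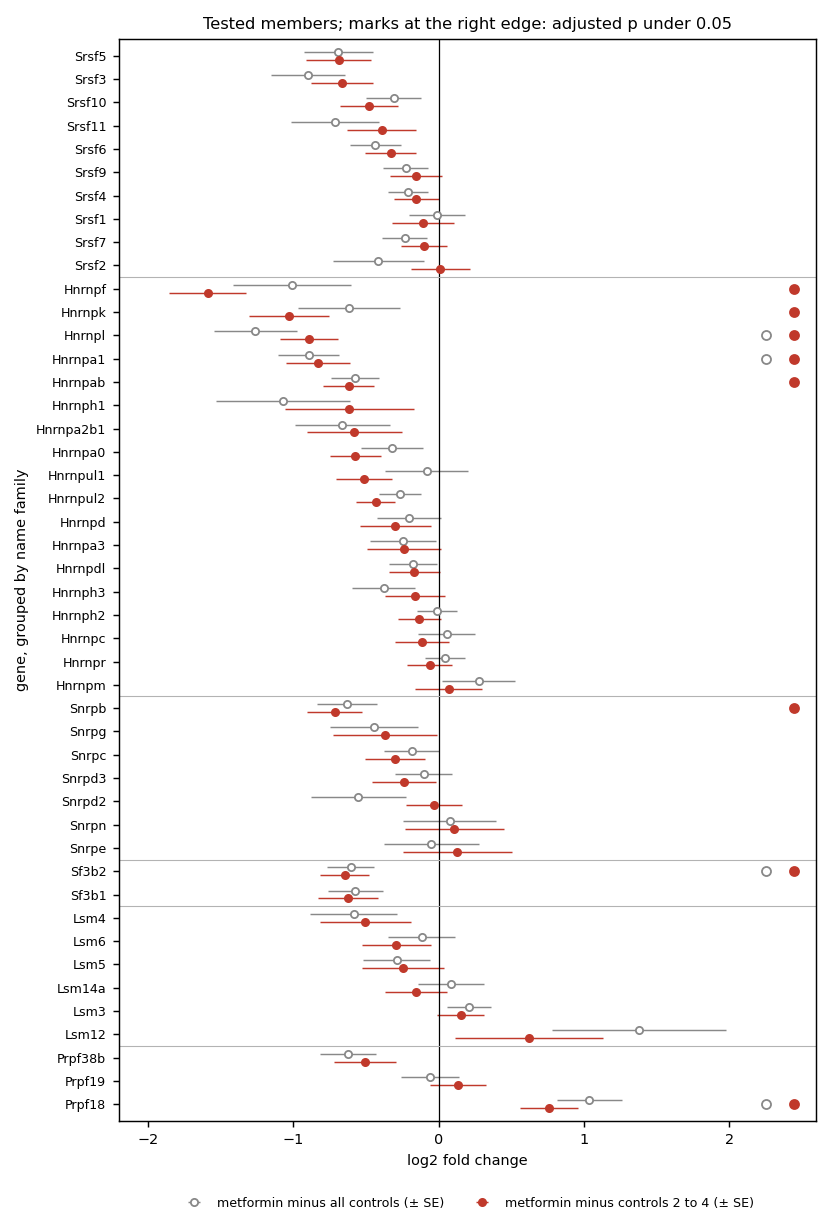
Log2 fold change (x axis) of each of the 46 tested members (y axis, by name family), metformin minus all 5 controls (open grey) and metformin minus controls 2 to 4 (red), with bars of 1 standard error (SE) and marks at the right edge for an adjusted p under 0.05. In each comparison 38 of the 46 points lie left of 0, and Prpf18 is the one marked member to the right.

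These counts depended on single libraries, as did those over all genes. Against all controls no member was called once control 5, metformin 1, metformin 4 or metformin 5 was left out, 1 without metformin 3, 2 without metformin 2 and 7 without control 3. The 8 calls against controls 2 to 4 became 2 without control 2, control 4 or metformin 5, 3 without metformin 4, and 5 without metformin 1 or metformin 3. In the same fits the calls over all genes, 145 higher and 107 lower against all controls, became 47 and 20 without control 5, 69 and 37 without metformin 1, 55 and 9 without metformin 4, and 43 and 8 without metformin 5. The 200 higher and 312 lower calls against controls 2 to 4 became 137 and 197 without control 2, 157 and 212 without control 4, and 146 and 193 without metformin 5. Without the filter on low values 0 members were called against all controls.

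Separation of the groups, which needs no model, gave a similar picture. Every metformin library lay below every control in 6 of the 46 members (13.0%, against 5.23% of all genes) and above every control in 1 (5.69% of all genes). The 6 were Hnrnpa1, Hnrnpab, Hnrnpl, Sf3b1, Sf3b2 and Srsf5. It lay below controls 2 to 4 alone in 12 members (26.1%, against 12.9% of all genes) and above them in 1 (9.85% of all genes). The library mean over the 46 tested members was 1.47 to 1.79 in metformin libraries, 1.82 to 1.86 in controls 1 and 5 and 1.80 to 2.01 in controls 2 to 4, so that no metformin library reached a control, although metformin 2, at 1.79, came close. Over all 74 members it was 1.14 to 1.34 in metformin libraries, 1.44 to 1.47 in controls 1 and 5 and 1.39 to 1.56 in controls 2 to 4. The mean over all tested genes was 2.03 to 2.09 in metformin libraries, 1.80 to 1.91 in controls 1 and 5 and 2.01 to 2.04 in controls 2 to 4.

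**Figure D2:**
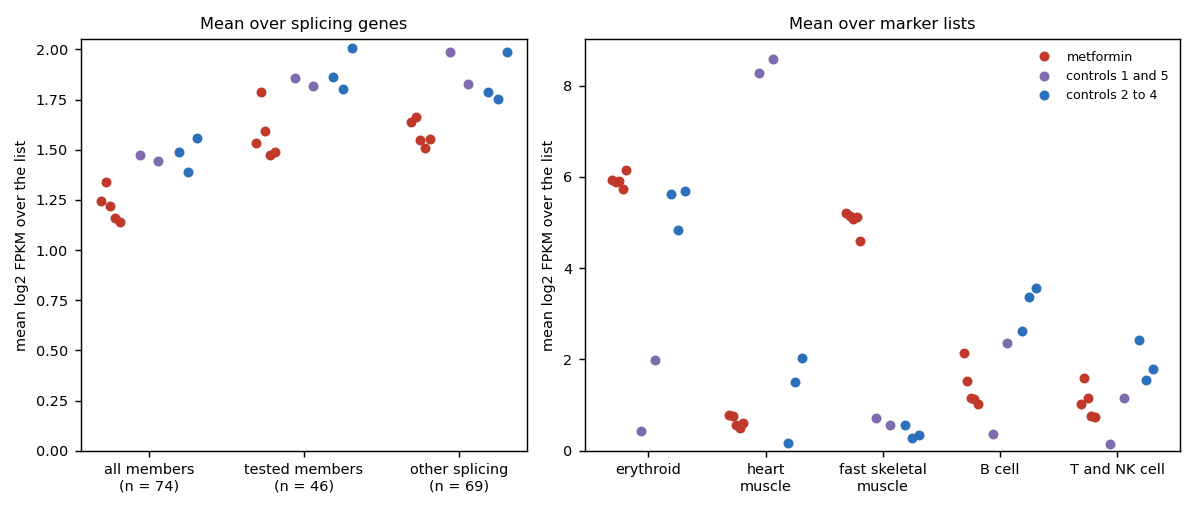
Mean log2 FPKM per library (points) over all 74 members, the 46 tested members and 69 other tested splicing genes (left), and over 5 marker lists (right), in metformin libraries (red), controls 1 and 5 (purple) and controls 2 to 4 (blue). Means over tested members are 1.47 to 1.79 in metformin libraries, below all controls, while heart markers mark out controls 1 and 5 and fast skeletal muscle markers the metformin libraries.

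Lymphocyte markers were also lower on average in metformin libraries than in controls 2 to 4. The mean over 8 B cell markers was 1.02 to 2.13 in metformin libraries, 0.37 to 2.36 in controls 1 and 5 and 2.62 to 3.56 in controls 2 to 4. Of the 8, 5 were tested, and 4 fell against controls 2 to 4 (9.06% of all genes called lower) and 0 against all controls. The summed log2 level of the 8 markers was 8.16 to 17.1 in metformin libraries, 2.94 to 18.9 in controls 1 and 5 and 21.0 to 28.5 in controls 2 to 4. The mean over 9 T and NK cell markers was 0.74 to 1.59 in metformin libraries, 0.15 to 1.15 in controls 1 and 5 and 1.54 to 2.42 in controls 2 to 4. Of the 9, 6 were tested, and 4 fell against controls 2 to 4 and 0 against all controls. The 9 markers summed to 6.62 to 14.3 in metformin libraries, 1.35 to 10.3 in controls 1 and 5 and 13.8 to 21.8 in controls 2 to 4. Of 9 neutrophil markers 7 were tested, and of the 6 monocyte markers in the table only 2, with no call in either comparison. The neutrophil mean was 0.77 to 2.44 in metformin libraries, 0.19 to 3.80 in controls 1 and 5 and 1.39 to 5.11 in controls 2 to 4. The monocyte mean was 1.25 to 1.95, 0.68 to 2.42 and 1.36 to 2.71 in the same sets. For both cell types the means in metformin libraries and controls 2 to 4 overlapped. The summed level of heart markers was 6.04 to 9.41 in metformin libraries. That of fast skeletal muscle markers was 55.2 to 62.5 in metformin libraries, 6.82 to 8.51 in controls 1 and 5 and 3.43 to 6.74 in controls 2 to 4. All 12 fast skeletal muscle markers rose with metformin in both comparisons. Of all genes, 4.21% were called higher against all controls and 5.81% against controls 2 to 4. Heart markers in metformin libraries ran from Myl7, at 0.09 to 0.12, to Myl2, at 1.45 to 2.26, against 0.11 to 1.52 for Myl7 and 0.46 to 4.24 for Myl2 in controls 2 to 4. The part of these markers in the results on splicing factors was not tested. In whole blood, fewer cells of a type and less RNA per cell cannot be told apart.

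**Figure D3:**
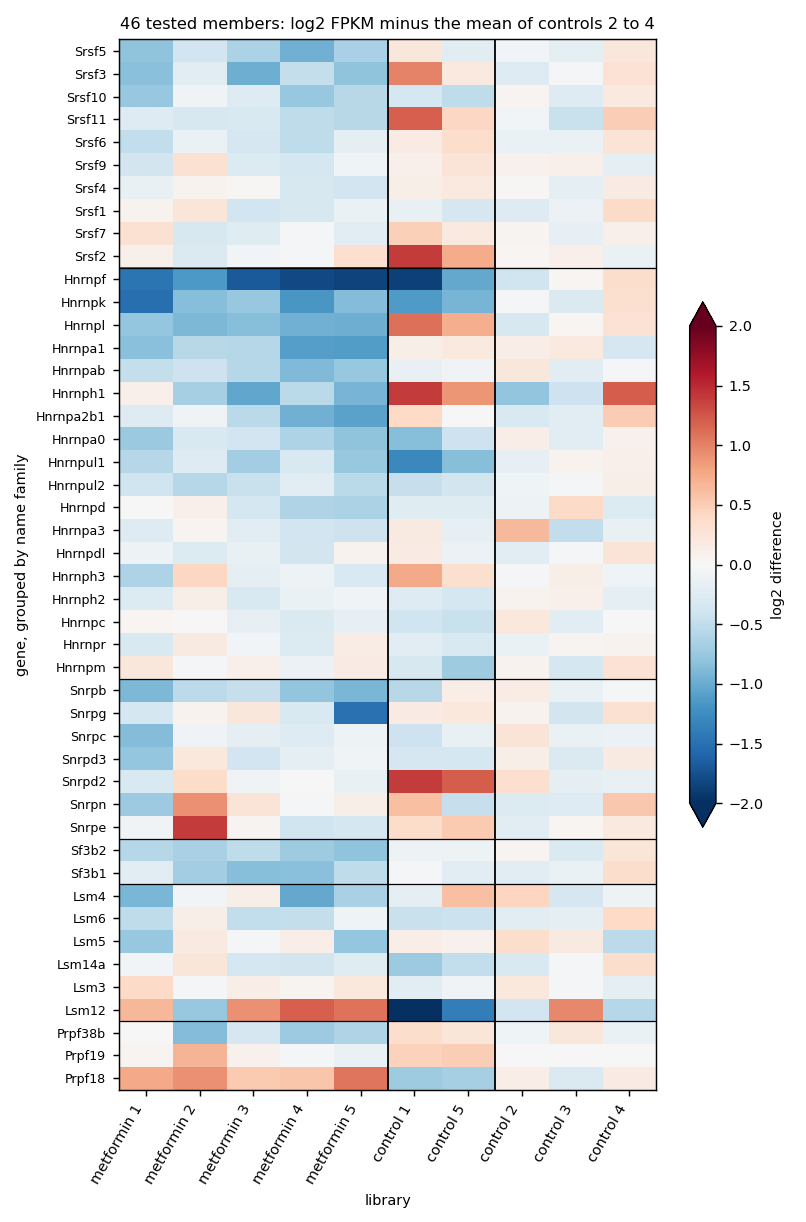
Log2 FPKM of each of the 46 tested members (rows, by name family) in each of the 10 libraries (columns), minus the mean of controls 2 to 4 (blue lower, red higher, scale from -2 to 2). Blue prevails in the 5 metformin columns, most deeply for Hnrnpf, while controls 1 and 5 hold deep blue (Lsm12, Hnrnpf) as well as deep red (Hnrnph1, Srsf2, Snrpd2).

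With metformin, Hnrnpl, Hnrnpa1 and Sf3b2 fell in both comparisons. Their upstream sequences are printed here because these genes were called in both comparisons, which share the metformin libraries and controls 2 to 4. Each of these calls was lost when certain single libraries were left out, as given below. Each is the 250 bases before the transcription start in RefSeq (GRCm38.p6), 5′ to 3′ on the strand of the gene, with CCAAT boxes (CCAAT) and GC boxes (GGGCGG) in capitals on either strand.
Hnrnpa1 (chr15:103240147-103240396, plus strand): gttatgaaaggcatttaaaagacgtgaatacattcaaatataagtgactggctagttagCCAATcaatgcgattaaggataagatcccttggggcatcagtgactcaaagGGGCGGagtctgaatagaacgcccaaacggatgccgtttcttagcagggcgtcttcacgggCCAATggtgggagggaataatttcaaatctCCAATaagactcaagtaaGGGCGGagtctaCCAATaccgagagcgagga
Hnrnpl (chr7:28810640-28810889, plus strand): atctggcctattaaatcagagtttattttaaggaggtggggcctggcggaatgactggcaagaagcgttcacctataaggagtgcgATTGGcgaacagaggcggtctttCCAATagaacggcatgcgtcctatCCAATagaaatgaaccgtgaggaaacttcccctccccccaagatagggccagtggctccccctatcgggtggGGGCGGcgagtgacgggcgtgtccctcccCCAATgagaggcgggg
Sf3b2 (chr19:5295458-5295707, minus strand): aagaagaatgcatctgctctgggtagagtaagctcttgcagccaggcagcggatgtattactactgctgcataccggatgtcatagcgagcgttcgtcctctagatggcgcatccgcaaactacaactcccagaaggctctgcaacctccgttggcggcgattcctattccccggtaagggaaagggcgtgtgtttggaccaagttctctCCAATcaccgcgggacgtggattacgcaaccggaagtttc
The Hnrnpa1 stretch held 4 CCAAT boxes and 2 GC boxes, the Hnrnpl stretch 4 and 1, and the Sf3b2 stretch 1 CCAAT box and no GC box. In windows of 300 bases, which also take in the 50 bases after the start, a CCAAT box on either strand stood in 31 of 58 windows of tested members (53.4%) and in 37.4% of all promoter windows. A GC box stood in 67.2% of the windows of tested members and in 35.7% of all windows. A GATA site (AGATAA), the element that erythroid GATA factors bind, stood in 5.17% and 11.2% of these windows, and none was in the stretches printed. The motifs may overlap by shared G or C bases. Windows were found for 64 of the 74 members, Prpf18 and Snrpb not among them. The RefSeq start used for Hnrnpl lies inside the span that the GENCODE annotation gives this gene. All promoter windows came from 27025 genes, far more than the 3442 tested, and no share over all tested genes is given here. Whether the members differ from other tested genes in these motifs was therefore not tested. These matches describe letters only.

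Fold changes of the SR protein genes lay mostly below 0 with metformin, but no single gene passed the test in either comparison. All 10 were below 0 against all controls (49.4% of all genes), with a median log2 fold change of -0.36, and 9 of 10 against controls 2 to 4 (44.7% of all genes), with a median of -0.24. At an unadjusted p under 0.05 in limma 4 of the 10 were lower against all controls (12.6% of all genes) and 3 against controls 2 to 4 (16.1% of all genes). Srsf5, the most abundant SR transcript and one first known as an insulin-responsive gene in rat liver, was 2.22, 2.65, 2.40, 2.06 and 2.37 in metformin libraries 1 to 5, 3.26 and 2.81 in controls 1 and 5, and 2.97, 2.85 and 3.26 in controls 2 to 4. Every metformin library lay below every control. Fold changes on the log2 scale were -0.69 ± 0.24 (SE, adjusted p = 0.1003) against all controls and -0.69 ± 0.22 (adjusted p = 0.0685) against controls 2 to 4.

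Srsf3, the smallest SR protein, was 1.08, 1.69, 0.94, 1.45 and 1.12 in metformin libraries, 2.90 and 2.12 in controls 1 and 5, and 1.66, 1.88 and 2.22 in controls 2 to 4. Only metformin 2 reached the lowest control. Its log2 fold change was -0.90 ± 0.26 (SE, adjusted p = 0.0575) against all controls and -0.66 ± 0.22 (adjusted p = 0.0670) against controls 2 to 4. Srsf2, also known as SC35, a component of nuclear speckles, behaved differently. It was 2.16, 1.77, 2.004, 2.04 and 2.40 in metformin libraries, 3.47 and 2.80 in controls 1 and 5, and 2.10, 2.17 and 1.92 in controls 2 to 4. Metformin libraries and controls 2 to 4 overlapped fully, and controls 1 and 5 stood apart by 1.07 on the log2 scale above controls 2 to 4. The log2 fold change of Srsf2 was -0.42 ± 0.31 (SE, adjusted p = 0.360) against all controls and 0.01 ± 0.20 (adjusted p = 0.974) against controls 2 to 4, where centring each library on its median gave -0.0174.

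Srsf1, the founding SR protein, showed little difference, with -0.01 ± 0.19 (SE, adjusted p = 0.966) against all controls and -0.11 ± 0.21 (adjusted p = 0.748) against controls 2 to 4, on means of 1.46 in metformin libraries and 1.47 in all controls. Srsf10, which represses splicing when dephosphorylated, was lower in controls 1 and 5 (1.14 and 0.98) than in controls 2 to 4 (1.54, 1.23 and 1.69) and differed by -0.48 ± 0.20 on the log2 scale (adjusted p = 0.146) between metformin and controls 2 to 4. The remaining 5 genes (Srsf4, Srsf6, Srsf7, Srsf9 and Srsf11) were all below 0 in both comparisons.

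Of the 8 members called against controls 2 to 4, 5 were hnRNP genes. In that comparison 5 of 18 tested Hnrnp genes fell (Hnrnpf, Hnrnpl, Hnrnpk, Hnrnpa1 and Hnrnpab), which is 27.8%, with 9.06% of all genes called lower. The fold change was below 0 in 17 of 18 (44.7% of all genes), with a median of -0.47 on the log2 scale. Against all controls 2 of 18 fell (Hnrnpl and Hnrnpa1, 11.1%, with 3.11% of all genes called lower), and the median was -0.29. At an unadjusted p under 0.05 in limma, 8 of the 18 genes were lower against controls 2 to 4 (16.1% of all genes) and 5 against all controls (12.6% of all genes).

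**Figure D4:**
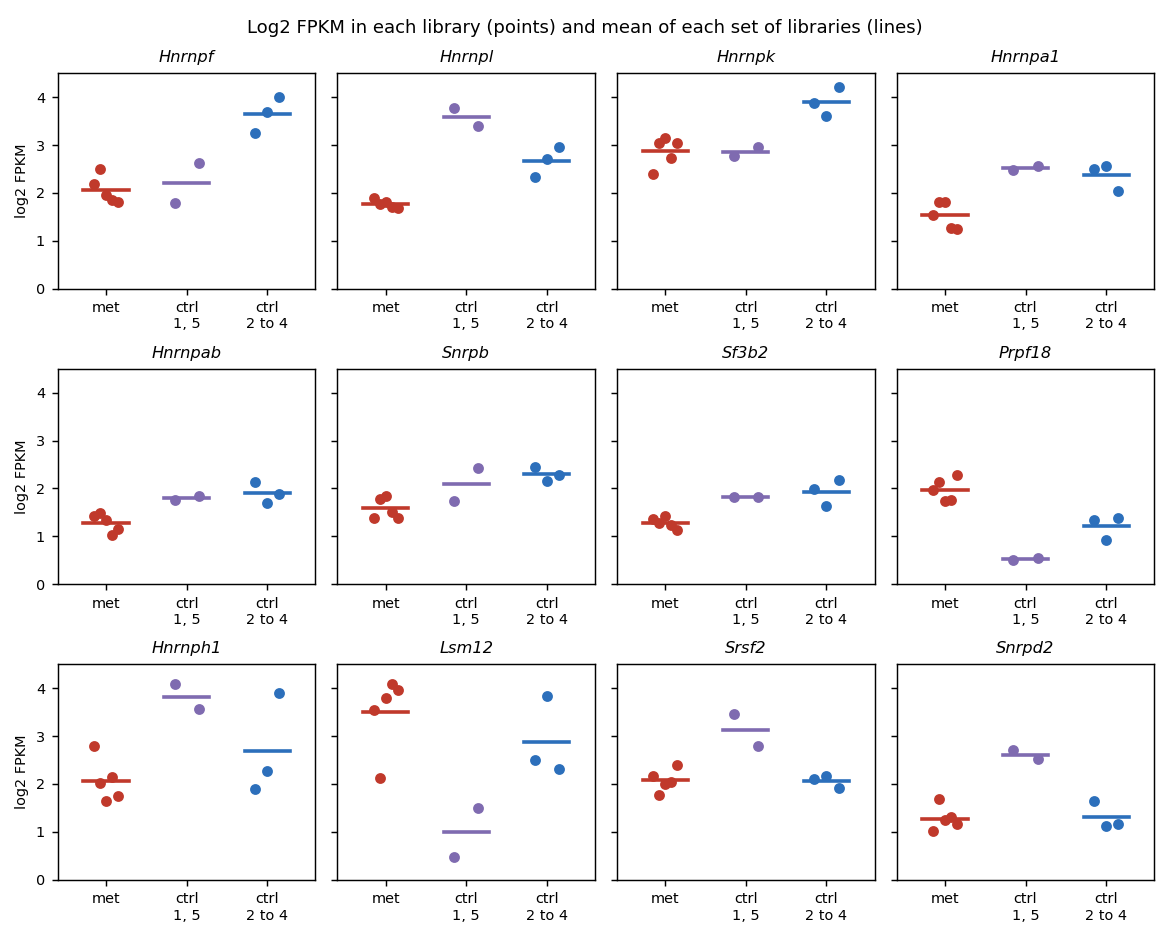
Log2 FPKM (y axis) in each library (points), with the mean of each set (lines), for the 8 members called in either comparison and 4 further members, in metformin libraries (red), controls 1 and 5 (purple) and controls 2 to 4 (blue). Metformin points lie below controls 2 to 4 in the 7 members that fell and above them in Prpf18, while Hnrnph1, Srsf2 and Snrpd2 are highest in controls 1 and 5 on average and Lsm12 is lowest there.

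Hnrnpf (ENSMUSG00000042079, chromosome 6, 117900324 to 117925622, plus strand), which binds runs of G near splice sites, had the largest fall against controls 2 to 4 among the members. It was 2.20, 2.51, 1.96, 1.85 and 1.80 in metformin libraries, 1.78 and 2.62 in controls 1 and 5, and 3.25, 3.69 and 4.01 in controls 2 to 4. All metformin libraries lay below controls 2 to 4, and so did both controls 1 and 5. With a log2 fold change of -1.59 ± 0.27 (SE, adjusted p = 0.00367) it fell against controls 2 to 4, and it had -1.01 ± 0.41 (adjusted p = 0.140) against all controls. The call against controls 2 to 4 held in all 8 fits that left out 1 library. Its relative Hnrnph1, which binds the same G runs, was 2.79, 2.01, 1.64, 2.14 and 1.75 in metformin libraries, 4.08 and 3.56 in controls 1 and 5, and 1.89, 2.26 and 3.89 in controls 2 to 4. Controls 2 and 3 lay among the metformin libraries and control 4 with controls 1 and 5, and the log2 fold change was -1.07 ± 0.46 (adjusted p = 0.157) against all controls and -0.62 ± 0.44 (adjusted p = 0.387) against controls 2 to 4. How reads shared by such close relatives were assigned is not given in the sources used here.

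Hnrnpl (ENSMUSG00000015165, chromosome 7, 28808541 to 28822266, plus strand) binds CA repeats and controls the splicing of CD45 in lymphocytes. It was 1.89, 1.77, 1.81, 1.70 and 1.69 in metformin libraries, 3.77 and 3.39 in controls 1 and 5, and 2.34, 2.70 and 2.95 in controls 2 to 4. The metformin libraries were tightly grouped and lay below every control, and controls 1 and 5 lay above controls 2 to 4. It fell in both comparisons, with a log2 fold change of -1.26 ± 0.29 (SE, adjusted p = 0.0268) against all controls and -0.89 ± 0.20 (adjusted p = 0.0148) against controls 2 to 4. The call against controls 2 to 4 was lost without control 4 (adjusted p = 0.0522), and that against all controls without control 5 or any 1 metformin library (0.0516 to 0.0777).

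Hnrnpa1 (ENSMUSG00000046434, chromosome 15, 103240432 to 103246692, plus strand), a repressor of splice sites that opposes SR proteins, was 1.53, 1.82, 1.80, 1.26 and 1.25 in metformin libraries, 2.48 and 2.55 in controls 1 and 5, and 2.50, 2.56 and 2.04 in controls 2 to 4. Every metformin library lay below every control, and controls 1 and 5 lay within the range of controls 2 to 4. It fell in both comparisons, by a log2 fold change of -0.89 ± 0.21 (SE, adjusted p = 0.0297) against all controls and -0.83 ± 0.22 (adjusted p = 0.0323) against controls 2 to 4. The first call was lost without control 5 or metformin 1, 3, 4 or 5 (0.0579 to 0.0901), and the second without control 2 or 3 or metformin 1, 4 or 5 (0.0582 to 0.0948).

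Hnrnpk (ENSMUSG00000021546, chromosome 13, 58391142 to 58403343, minus strand), which binds C-rich RNA and DNA, was 2.40, 3.05, 3.14, 2.73 and 3.04 in metformin libraries, 2.76 and 2.96 in controls 1 and 5, and 3.88, 3.61 and 4.21 in controls 2 to 4. Controls 1 and 5 lay within the range of the metformin libraries and, as with Hnrnpf, below controls 2 to 4. It fell against controls 2 to 4 by 1.03 ± 0.27 on the log2 scale (SE, adjusted p = 0.0327), and its log2 fold change against all controls was -0.62 ± 0.35 (adjusted p = 0.242). The call was lost without control 2 or 4 or metformin 1, 3, 4 or 5 (0.0523 to 0.101).

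Hnrnpab (ENSMUSG00000020358, chromosome 11, 51600100 to 51606847, minus strand), an hnRNP of the A/B type, was 1.42, 1.49, 1.34, 1.03 and 1.16 in metformin libraries, 1.76 and 1.83 in controls 1 and 5, and 2.13, 1.70 and 1.89 in controls 2 to 4. Metformin libraries lay below every control. It fell against controls 2 to 4 only, and the log2 fold change was -0.62 ± 0.18 (SE, adjusted p = 0.0434) against controls 2 to 4 and -0.58 ± 0.17 (adjusted p = 0.0595) against all controls. The call was lost without control 2 or 4 or metformin 1, 3, 4 or 5 (0.0554 to 0.133), and without the filter on low values.

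Hnrnpa2b1, an hnRNP of mRNA transport, was the most abundant member of all, at 3.32, 3.50, 3.03, 2.61 and 2.50 in metformin libraries, 3.97 and 3.58 in controls 1 and 5, and 3.26, 3.36 and 4.08 in controls 2 to 4. The sets overlapped, and the log2 fold change was -0.66 ± 0.33 (SE, adjusted p = 0.198) against all controls and -0.58 ± 0.33 (adjusted p = 0.273) against controls 2 to 4. Hnrnpm had the highest fold change of the family, 0.28 ± 0.25 (adjusted p = 0.450) against all controls and 0.07 ± 0.23 (adjusted p = 0.853) against controls 2 to 4. Every metformin library lay below controls 2 to 4 in 8 of the 18 tested Hnrnp genes (44.4%, against 12.9% of all genes). Besides the 5 genes that fell, these were Hnrnpa0, Hnrnpul1 and Hnrnpul2. These 3 genes were singled out after their values were seen, and both controls 1 and 5 also lay below controls 2 to 4 in each of them.

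The Snrp genes mostly encode Sm proteins, which form the ring around the U1, U2, U4 and U5 snRNAs. Of these, 1 of 7 tested genes fell against controls 2 to 4 (14.3%, with 9.06% of all genes called lower). None fell against all controls (3.11% of all genes), where 1 was lower at an unadjusted p under 0.05 in limma (12.6% of all genes). Snrpb (ENSMUSG00000027404, chromosome 2, 130171414 to 130179403, minus strand), which encodes SmB, was 1.39, 1.78, 1.84, 1.51 and 1.39 in metformin libraries, 1.75 and 2.43 in controls 1 and 5, and 2.45, 2.16 and 2.28 in controls 2 to 4. Metformin libraries lay below controls 2 to 4, while control 1 lay among them. Snrpb fell, with a log2 fold change of -0.72 ± 0.19 (SE, adjusted p = 0.0315) against controls 2 to 4 and -0.63 ± 0.21 (adjusted p = 0.0888) against all controls. The call was lost without control 2 or 4 or metformin 1, 4 or 5 (0.0647 to 0.0959). Snrpn, the close copy of SmB that is imprinted and best known from brain, gave 0.11 ± 0.34 (adjusted p = 0.847) against controls 2 to 4. Snrpb and Snrpn are near copies, so either value may be uncertain if reads were shared between them, which was not tested.

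None of the other 6 Snrp genes passed the test, and some of them varied among the controls. Snrpd2, which encodes SmD2, was 1.01, 1.68, 1.24, 1.30 and 1.16 in metformin libraries, 2.70 and 2.52 in controls 1 and 5, and 1.64, 1.12 and 1.16 in controls 2 to 4. Metformin libraries and controls 2 to 4 overlapped, and controls 1 and 5 lay 1.31 above controls 2 to 4 on the log2 scale. For Snrpd2 the log2 fold change was -0.55 ± 0.33 (SE, adjusted p = 0.255) against all controls and -0.03 ± 0.19 (adjusted p = 0.929) against controls 2 to 4. Snrpd3, another member of the ring, had -0.10 ± 0.20 (adjusted p = 0.731) against all controls and -0.24 ± 0.22 (adjusted p = 0.497) against controls 2 to 4. Snrpe, also of the ring, had -0.05 ± 0.33 (adjusted p = 0.920) against all controls and 0.13 ± 0.37 (adjusted p = 0.831) against controls 2 to 4. Metformin 2 was far above the other metformin libraries for Snrpe, at 2.79 against 0.995 to 1.45.

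In the SF3b complex, which holds the branch site in the U2 snRNP, 2 genes were tested. Both had every metformin library below every control (5.23% of all genes). Sf3b2 (ENSMUSG00000024853, chromosome 19, 5273932 to 5295455, minus strand), a subunit that contacts RNA near the branch site, was 1.37, 1.28, 1.42, 1.23 and 1.12 in metformin libraries, 1.82 and 1.82 in controls 1 and 5, and 1.98, 1.64 and 2.17 in controls 2 to 4. Controls 1 and 5 lay within the range of controls 2 to 4. It fell in both comparisons, with a log2 fold change of -0.60 ± 0.16 (SE, adjusted p = 0.0465) against all controls and -0.65 ± 0.17 (adjusted p = 0.0321) against controls 2 to 4. The first call was lost when any 1 library other than control 1 or control 3 was left out (0.0632 to 0.121), and the second without control 2 or 4 or metformin 3, 4 or 5 (0.0533 to 0.1005).

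Sf3b1, the subunit that holds the branch-point adenosine and is often mutated in human myelodysplastic syndromes, was 1.67, 1.21, 1.05, 1.06 and 1.39 in metformin libraries, 1.87 and 1.67 in controls 1 and 5, and 1.68, 1.77 and 2.26 in controls 2 to 4. Metformin 1 nearly touched the lowest control. The log2 fold change was -0.57 ± 0.19 (SE, adjusted p = 0.0930) against all controls and -0.62 ± 0.21 (adjusted p = 0.0736) against controls 2 to 4. The other 7 Sf3a and Sf3b genes were too low to be tested.

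The Lsm proteins, which form the ring on U6 snRNA and a cytoplasmic ring that promotes mRNA decapping, gave no call in 6 tested genes. At an unadjusted p under 0.05 in limma 1 of the 6 was higher against all controls (16.2% of all genes) and none lower (12.6% of all genes). Neither direction had a gene against controls 2 to 4. Lsm12, an Sm-like protein outside both rings, was 3.55, 2.13, 3.80, 4.08 and 3.96 in metformin libraries, 0.48 and 1.50 in controls 1 and 5, and 2.50, 3.85 and 2.31 in controls 2 to 4. Metformin libraries other than metformin 2 lay above controls 1, 2, 4 and 5, but 2 of these 4 lay below control 3. For Lsm12 the log2 fold change was 1.38 ± 0.60 (SE, adjusted p = 0.163) against all controls and 0.62 ± 0.51 (adjusted p = 0.446) against controls 2 to 4. Controls 1 and 5 lay 1.89 below controls 2 to 4 on the log2 scale. Red cell markers were also lowest in controls 1 and 5. The mean over 8 platelet markers was 5.39, 0.66, 5.17, 5.69 and 5.83 in metformin libraries, 0.29 and 2.57 in controls 1 and 5, and 2.38, 6.51 and 1.12 in controls 2 to 4 (summed log2 level 5.29 to 46.6 in metformin libraries, 2.36 to 20.5 in controls 1 and 5 and 8.92 to 52.1 in controls 2 to 4). Platelet markers and Lsm12 were thus both high in control 3 and in every metformin library but metformin 2, and the part of either marker list in Lsm12 was not tested. Lsm4, a subunit of both rings, had -0.59 ± 0.30 (adjusted p = 0.205) against all controls and -0.50 ± 0.31 (adjusted p = 0.318) against controls 2 to 4.

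Prpf18 (ENSMUSG00000039449, chromosome 2, 4622058 to 4652113, minus strand), a factor of the second catalytic step, was the one member that rose. It was 1.97, 2.13, 1.74, 1.76 and 2.28 in metformin libraries, 0.50 and 0.54 in controls 1 and 5, and 1.35, 0.92 and 1.38 in controls 2 to 4. Every metformin library lay above every control, and controls 1 and 5 were lowest. The log2 fold change was 1.04 ± 0.22 (SE, adjusted p = 0.0249) against all controls and 0.76 ± 0.20 (adjusted p = 0.0306) against controls 2 to 4. The first call was lost without control 5 or metformin 1, 4 or 5 (0.0511 to 0.0683), and the second without control 2, 3 or 4 or metformin 1 or 5 (0.0514 to 0.0958). Red cell markers, which were also lowest in controls 1 and 5, and fast skeletal muscle markers, which were highest in metformin libraries, ran beside this gene, and their part in it was not tested.

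Of the other tested Prpf genes, Prpf38b, a relative of a yeast factor that activates the spliceosome, had -0.62 ± 0.20 (SE, adjusted p = 0.0785) against all controls and -0.51 ± 0.21 (adjusted p = 0.145) against controls 2 to 4. Prpf19, the ubiquitin ligase of the Prp19 complex, had -0.06 ± 0.20 (adjusted p = 0.844) against all controls and 0.13 ± 0.19 (adjusted p = 0.664) against controls 2 to 4. Prpf40b, a U1-associated protein that was singled out after its values were seen, was not tested because only 3 libraries reached the filter. It was 0.72, 0.91, 0.95, 1.10 and 0.82 in metformin libraries, 2.63 and 2.12 in controls 1 and 5, and 0.49, 0.48 and 0.63 in controls 2 to 4. Controls 1 and 5 were by far the highest, and metformin libraries lay above controls 2 to 4.

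Within the controls, the heart-rich libraries differed from the rest in both directions, but in no larger a share of the members than of all genes. In 9 of 46 members both controls 1 and 5 lay above controls 2 to 4 (19.6%, against 25.8% of all genes), and in 15 both lay below (32.6%, against 35.6% of all genes). The median difference over the members, controls 1 and 5 minus controls 2 to 4, was -0.05, against -0.20 over all genes. The members above were Hnrnph3, Hnrnpl, Prpf19, Prpf38b, Snrpd2, Snrpe, Srsf2, Srsf7 and Srsf9. Those below included Hnrnpf, Hnrnpk, Lsm12 and Prpf18. By family the median difference was 0.22 for the Srsf genes and -0.25 for the Hnrnp genes. Of the genes called against controls 2 to 4, Hnrnpf, Hnrnpk and Prpf18 thus had lower levels in controls 1 and 5 than in controls 2 to 4, Hnrnpl had higher ones, and Hnrnpa1, Hnrnpab, Snrpb and Sf3b2 overlapped.

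Splicing genes outside these name families also had mostly negative fold changes. Of 120 such genes listed (U1 and U2 recognition, the catalytic spliceosome, the exon junction complex, regulatory RNA-binding proteins and SR protein kinases), 116 were in the table and 69 were tested. The fold change was below 0 in 52 against all controls (75.4%, against 49.4% of all genes) and in 55 against controls 2 to 4 (79.7%, against 44.7%). Against all controls the lists differed. It was below 0 in 15 of 26 regulatory RNA-binding proteins (57.7%) and 6 of 10 catalytic spliceosome genes (60%), but in all 15 of the exon junction list. Against all controls 5 fell (7.25%, with 3.11% of all genes called lower) and none rose (4.21% of all genes called higher). At an unadjusted p under 0.05 in limma 26 of the 69 were lower (12.6% of all genes) and 2 higher (16.2% of all genes). The median log2 fold change was -0.34, against 0.01 over all genes. In the comparison with controls 2 to 4, 7 fell (10.1%, close to the 9.06% of all genes called lower) and none rose (5.81% of all genes called higher). There 18 of the 69 were lower (16.1% of all genes) and 0 higher (12.6% of all genes) at an unadjusted p under 0.05 in limma. The median was -0.24, against 0.07 over all genes. Those that fell against all controls were Ddx5, Ddx39b and Snw1, together with Rbm5 and Ewsr1, which were named after their values were seen. Snw1 passed the filter through the controls alone, as given below. The library mean over the 69 genes was 1.51 to 1.66 in metformin libraries, 1.83 to 1.99 in controls 1 and 5 and 1.75 to 1.99 in controls 2 to 4.

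Ddx5, an RNA helicase that cooperates with hnRNP proteins in alternative splicing, was 2.94, 3.03, 2.82, 2.31 and 2.62 in metformin libraries, 4.05 and 4.08 in controls 1 and 5, and 4.03, 3.86 and 4.43 in controls 2 to 4. The groups were widely apart, and the controls agreed among themselves whether or not they were rich in heart transcripts. Ddx5 fell in both comparisons, with a log2 fold change of -1.35 ± 0.29 (SE, adjusted p = 0.0240) against all controls and -1.37 ± 0.27 (adjusted p = 0.00893) against controls 2 to 4. The call against controls 2 to 4 held in all 8 fits that left out 1 library, and that against all controls was lost without control 5 or metformin 1, 3, 4 or 5 (0.0506 to 0.0751).

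Ddx39b, the helicase that loads U2 snRNP and links splicing to mRNA export, fell too, with -1.17 ± 0.28 (SE, adjusted p = 0.0300) against all controls and -0.88 ± 0.22 (adjusted p = 0.0256) against controls 2 to 4. These calls were lost without control 5 or any 1 metformin library in the first (0.0520 to 0.0907) and without control 2 or 4 or metformin 4 or 5 in the second (0.0649 to 0.0847). Snw1, a subunit of the activated spliceosome, fell by 0.41 ± 0.10 (adjusted p = 0.0306) against all controls and by 0.40 ± 0.11 (adjusted p = 0.0394) against controls 2 to 4. The first of these calls was lost without control 5 or any 1 metformin library (0.0567 to 0.0874), the other without control 2 or 4 or any 1 metformin library (0.0539 to 0.125). Snw1 reached a value of 1 only in the 5 controls (1.01 to 1.29), with 0.70 to 0.81 in metformin libraries. It thus passed the filter only through the group where it is high, and its calls are no separate support for a fall. Both calls were also lost without the filter on low values and without the trend. U2af2, which reads the polypyrimidine tract, had -0.65 ± 0.21 (adjusted p = 0.0888) against all controls and fell against controls 2 to 4 by 0.77 ± 0.23 (adjusted p = 0.0480), a call lost without control 2 or 4 or metformin 1, 3, 4 or 5 (0.0772 to 0.143). Clk1, a kinase that phosphorylates SR proteins, was 1.90, 1.52, 1.47, 1.38 and 1.48 in metformin libraries, 4.43 and 3.20 in controls 1 and 5, and 1.83, 2.35 and 2.68 in controls 2 to 4. Metformin 1 overlapped control 2, and the log2 fold change was -1.35 ± 0.42 (adjusted p = 0.0785) against all controls and -0.74 ± 0.23 (adjusted p = 0.0571) against controls 2 to 4.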

How the data were processed

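Members and gene lists were chosen with earlier results of these data known. Reads had been aligned by the authors with TopHat2 on GRCm38 and quantified with Cufflinks, per the labels and the methods. The deposited table holds log2 FPKM, with an offset before the log that is not stated. Once sorted, all libraries have almost the same values (largest SD over libraries at any rank 0.0399), as after quantile normalization, so levels are relative within a library. Depth is unknown, and no counting interval is given. Nothing states that libraries came from separate mice, so p-values measure the spread between libraries. All 74 members matched the annotation (GENCODE vM21, GRCm38) by identifier.

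Genes at 1 or more in at least 5 libraries (3442 of 8904) were tested with limma 3.58.1 in R 4.3.3 (lmFit, eBayes with a trend), with Benjamini-Hochberg adjustment over all of them and a threshold of 0.05. The procedure was tested on simulated data. Alternatives were the offset, the filter, the scaling, the variance model, library weights, the threshold, a replicate block and leaving out each library. Per family, genes were named when called, most abundant, or at either end of a fold change or of the control difference, and for each other splicing list the gene of smallest p. One member is not reported here by name. No value was imputed, and controls 1 and 5 were left out of the second comparison.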

Additional observations from a re-analysis of the deposited data

Results flagged for a closer look

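Among the 30 genes named by rule, 60 groups of 5 libraries were checked for a single library far from the others, and 5 were found, where chance gives about 1 in 20 groups. Hnrnpa1 was 2.04 in control 4, below the 2.48 to 2.56 of controls 1, 2, 3 and 5. In metformin 2, Snrpe was 2.79 (other metformin libraries 0.995 to 1.45), Lsm12 was 2.13 (3.55 to 4.08) and Prpf19 was 1.93 (1.12 to 1.33). Clk1 was 1.90 in metformin 1, against 1.38 to 1.52 in the other metformin libraries. Metformin 2 also had the lowest mean over 8 platelet markers among the metformin libraries, 0.66 against 5.17 to 5.83 in the other 4.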

How the results depend on the processing

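Counts of members called against all controls (4) became 0 without the filter, 2 with the stricter filter, 13 with library weights and 9 at an adjusted p under 0.10. Against controls 2 to 4 (8) they became 4 with the stricter filter and 13 at 0.10. Other splicing genes against all controls (5) became 0 without the filter, 3 with the stricter filter, 11 with library weights and 10 at 0.10, and against controls 2 to 4 (7) they became 3 with the stricter filter and 14 at 0.10. Leaving out 1 library gave 0 to 7 and 2 to 10 members, and 0 to 7 and 2 to 6 other splicing genes. The remaining settings, apart from the replicate block, kept each count within 1.5 times. Of all 3442 genes, 145 rose and 107 fell against all controls, or 129 and 158 with each library centred on its median. A threshold of 0.10 admits more genes by construction, and for the filter and the weights the cause was not tested.

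Single genes were rerun for the 30 named by rule only. Among these, directions changed as follows. Against controls 2 to 4, Srsf2 was -0.0174 with median centring and Snrpe -0.0289 with library weights, and against all controls Snrpn was -0.00989 with median centring. With 1 library left out, the log2 fold change against all controls ranged from -0.10 to 0.11 for Srsf1, -0.12 to 0.28 for Snrpn, -0.37 to 0.081 for Snrpe, -0.21 to 0.0297 for Snrpd3 and -0.20 to 0.0164 for Prpf19. Against controls 2 to 4 it ranged from -0.24 to 0.0833 for Srsf1, -0.0676 to 0.0896 for Srsf2, -0.11 to 0.22 for Hnrnpm, -0.0942 to 0.38 for Snrpn, -0.19 to 0.26 for Snrpe, -0.13 to 0.14 for Snrpd2 and -0.0058 to 0.20 for Prpf19.

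With the replicate number as a block, 0 members and 0 other splicing genes were called in either comparison, and against controls 2 to 4 Srsf2 was -0.12, Hnrnpm -0.0132 and Snrpd2 0.10. No pairing by number was seen. Deviations of same-numbered libraries correlated at -0.25 to 0.13 over 5 pairs and at -0.47 to 0.44 over the 3 pairs with controls 2 to 4. Only 2 of 10 and 2 of 6 libraries correlated best with their own number. With so few pairs, and with controls that differ in their tissue markers, this cannot exclude a pairing or a shared batch.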
